A study of Mus musculus with 1 sample.

Results

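The Hox genes were examined here across the cell types of the mouse adrenal gland at postnatal day 15. The rule took every row of the count matrix whose symbol is Hoxa, Hoxb, Hoxc or Hoxd followed by a number, and it uses no measured value. This gave 39 of the 32285 genes in the matrix, 11 in the Hoxa cluster, 10 in Hoxb, 9 in Hoxc and 9 in Hoxd. The data are 1 droplet-based single-cell RNA sequencing library from untreated wild-type mice. Medullae of 10 adrenals from 5 mice, males and females together, were freed of most cortex by hand, pooled and dissociated, so that no value can be traced to an animal. The library has no replicate, so no test between samples was made. All intervals given are exact 95% intervals and cover counting error only.

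Hox genes encode homeodomain transcription factors that give cells of the body axis their position. They lie in clusters on separate chromosomes, and genes that hold the same place in different clusters, called paralogs, share a number. Genes with low numbers lie at the 3′ end of a cluster and are used towards the head, and those with high numbers lie at the 5′ end and are used towards the tail. The adrenal gland joins lineages of different origin. Steroid-making cortex cells come from mesoderm. The catecholamine-making chromaffin cells and the glia-like sustentacular cells of the medulla come from neural crest. Endothelial and immune cells are of further lineages.

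After filtering, 10139 of 11214 barcodes were kept, with a median of 3567 unique molecular identifiers (UMIs, each of which counts 1 transcript molecule). Clusters of cells were named from marker genes into 9 classes with 9366 cells. Chromaffin clusters were divided by *Pnmt*, which encodes the enzyme that makes adrenaline. There were 1670 adrenaline chromaffin-like cells, in clusters where at least 50% of cells had a *Pnmt* UMI. The 388 noradrenaline chromaffin-like cells were those below that share, so single cells of either type may differ. The 2058 cells of both types together are called chromaffin-like. A further 135 cells were cycling chromaffin-like, 414 were transitioning-like with chromaffin and sustentacular markers, and 179 were sustentacular-like. Outside the medulla there were 3715 cortex-like, 2150 endothelial-like, 626 immune-like and 89 fibroblast-like cells. The median depth ranged from 1149 UMIs in sustentacular-like to 5768 in cycling chromaffin-like cells. Levels are therefore given as UMIs of a gene per 1000000 UMIs of the class (CPM). Such a level compares a gene between classes, and since each UMI is 1 molecule read at its 3′ end it is not divided by gene length. Markers of other lineages showed how much RNA from outside a cell was read. Only markers at least 20-fold higher in their own class than in the class examined were used. Cortex markers stood at 0.589% of their cortex-like level in chromaffin-like cells and at 1.29% in endothelial-like cells. The second value uses 8 of the 9 cortex markers. All 9 summed to 520 CPM in endothelial-like and 24073 CPM in cortex-like cells, so such shares, and the levels of pooled RNA given below, may be too low. In cortex-like cells, endothelial markers stood at 3.27% and chromaffin markers at 0.286% of their own level. The sample is labelled as medulla, but the largest class was cortex-like.

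The results turn on 2 pairs of paralogs, *Hoxb9* with *Hoxc9* and *Hoxb8* with *Hoxc8*. Between cortex and chromaffin cells the first pair was split, with *Hoxb9* read mainly in the cortex and *Hoxc9* mainly in chromaffin cells. In the second pair *Hoxb8* was read in both alike and *Hoxc8* mainly in the cortex. Their homeobox, the 180 bases that encode the DNA-binding homeodomain, is shown to let the members of a pair be compared. Capitals mark the bases at which the members of a pair differ. Each homeobox lies in the coding part of the last exon, and all coordinates are of build GRCm38, the mm10 assembly. The homeobox of *Hoxb9* lies at chr11:96274659-96274838 on the + strand in exon 2 of 2, and that of *Hoxc9* at chr15:102983930-102984109 on the + strand in exon 3 of 3.
Hoxb9: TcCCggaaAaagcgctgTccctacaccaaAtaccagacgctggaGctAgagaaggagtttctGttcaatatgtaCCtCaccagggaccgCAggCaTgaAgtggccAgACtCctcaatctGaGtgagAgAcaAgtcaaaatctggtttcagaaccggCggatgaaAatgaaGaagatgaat
Hoxc9: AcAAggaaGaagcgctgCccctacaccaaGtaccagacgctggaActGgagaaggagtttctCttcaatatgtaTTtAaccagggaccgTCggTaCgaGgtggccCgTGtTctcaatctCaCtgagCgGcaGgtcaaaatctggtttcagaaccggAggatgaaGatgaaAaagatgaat
The members of this pair differ at 29 of 180 bases and in 4 of the 60 residues encoded. The homeobox of *Hoxb8* lies at chr11:96284174-96284353 and that of *Hoxc8* at chr15:102992571-102992750, both on the + strand in exon 2 of 2.
Hoxb8: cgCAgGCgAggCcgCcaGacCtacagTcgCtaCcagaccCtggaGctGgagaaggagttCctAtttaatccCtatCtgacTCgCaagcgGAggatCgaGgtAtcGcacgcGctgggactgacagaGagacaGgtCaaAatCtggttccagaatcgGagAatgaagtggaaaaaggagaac
Hoxc8: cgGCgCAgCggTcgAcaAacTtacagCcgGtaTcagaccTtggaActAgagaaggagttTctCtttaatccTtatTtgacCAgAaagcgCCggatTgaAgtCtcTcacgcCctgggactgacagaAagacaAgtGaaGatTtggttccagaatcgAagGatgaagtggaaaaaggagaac
These differ at 36 of 180 bases but in only 1 of 60 residues.

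Of the 39 genes, 26 had a UMI in the kept cells, with 26294 UMIs and a summed level of 540 CPM. The summed level was highest in noradrenaline chromaffin-like cells, at 673 CPM (629 to 719), and in cortex-like cells, at 666 CPM (656 to 676), and these intervals overlap. It was 598 CPM (568 to 629) in transitioning-like, 573 (488 to 668) in fibroblast-like and 500.4 (456 to 548) in cycling chromaffin-like cells. Endothelial-like cells stood at 358 CPM (343 to 374), sustentacular-like cells at 355 (282 to 440) and the adrenaline type at 326 (313 to 340). Immune-like cells had 63.5 CPM (50.6 to 78.8), and 15.5 CPM once cells with UMIs of 3 or more markers of another class were left out, an alternative chosen after the data were seen. A stricter filter on cells raised it to 217 CPM. Between 11 and 19 genes reached 5 CPM in each class other than the immune-like cells, where 6 did. In sustentacular-like cells the sum was 82 UMIs and a single UMI amounted to 4.33 CPM, so that single genes can rarely be told from 0 there. Thinned to 1000 UMIs per cell, 46.1% of cortex-like (44.5 to 47.7), 49.3% of noradrenaline chromaffin-like (44.1 to 54.6), 26.0% of adrenaline chromaffin-like (23.9 to 28.2) and 2.90% of immune-like cells (1.67 to 4.66) kept a Hox UMI. Before thinning these shares were 91.2%, 79.1%, 62.2% and 8.15%, and 3, 23, 11 and 74 shallower cells of these classes were left out.

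Almost no RNA came from the 5′ end of the clusters. The 12 genes with numbers 10 to 13 had 2 UMIs in all, both of *Hoxa10* in endothelial-like cells, and *Hoxb1* and *Hoxd1* at the 3′ end had none. The floor set for a count of 0, 3 counts, is 0.122 CPM in cortex-like and 13 CPM in sustentacular-like cells, somewhat below the exact upper limit. The mean paralog number, weighted by UMIs, was 7.28 ± 0.01 (counting SE) in cortex-like, 6.57 ± 0.03 in chromaffin-like and 5.87 ± 0.04 in endothelial-like cells. Number 9 was thus the highest with more than 2 UMIs, and which of its paralogs was read differed between classes.

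**Figure D1:**
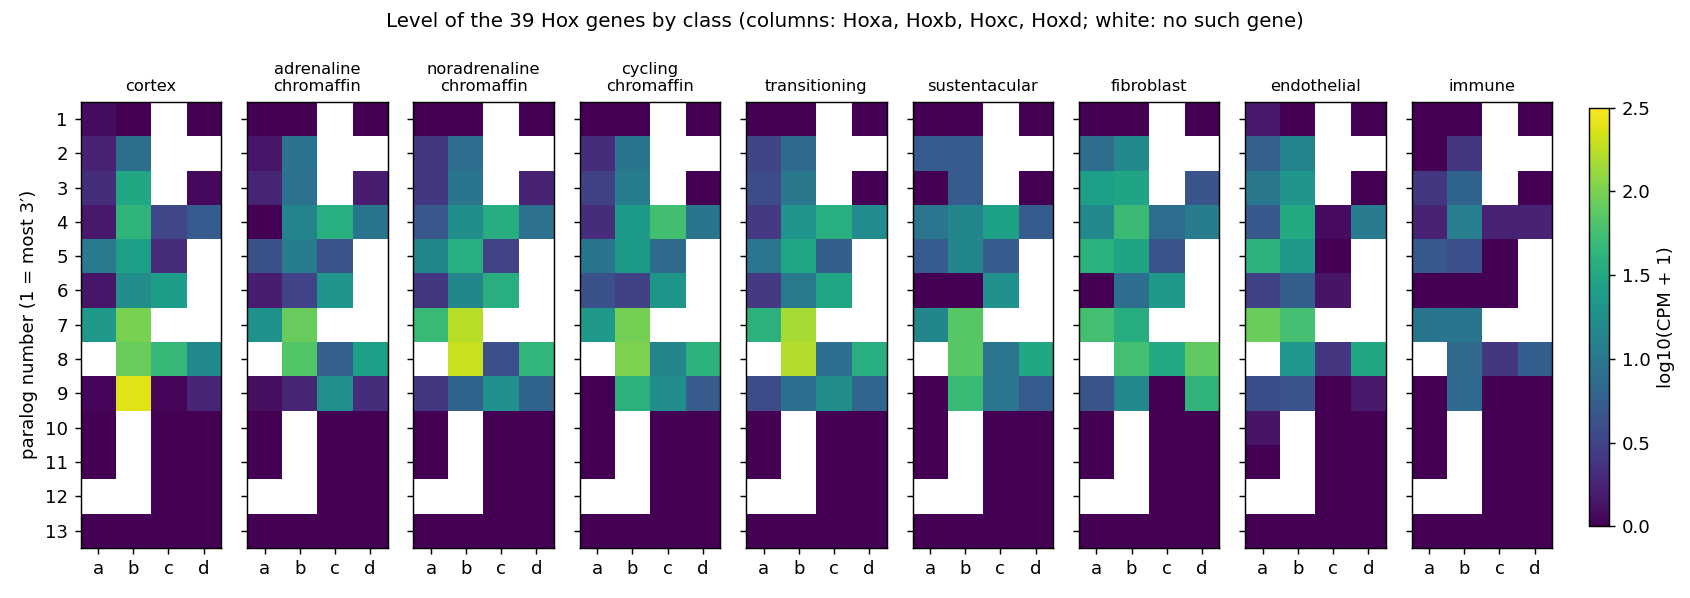
Level of all 39 Hox genes in the 9 classes, as log10(CPM + 1). Each panel is a class, the columns are the Hoxa, Hoxb, Hoxc and Hoxd clusters, the rows are paralog numbers and white squares have no gene. Squares of numbers 10 to 13 are dark in each class, the brightest square of the cortex panel is *Hoxb9* and the Hoxc column of the endothelial panel is dark.

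*Hoxb9* set cortex-like cells apart from chromaffin-like and endothelial-like cells (chr11:96271457-96276595, + strand). Its level was 236 CPM (230 to 242, 5798 UMIs) in cortex-like cells, the highest of any Hox gene in any class. It was 1.5 CPM (0.798 to 2.56, 13 UMIs) in chromaffin-like and 3.5 CPM (2.14 to 5.41) in endothelial-like cells. In both classes the interval reached down to the level that pooled RNA could give. The cortex-like level was 157-fold higher than the chromaffin-like one (92 to 296). *Hoxb9* had a UMI in 66.2% of cortex-like cells (64.6 to 67.7) and in 0.632% of chromaffin-like cells (0.337 to 1.08). With all cells thinned to 1000 UMIs the shares were 19.5% (18.2 to 20.8) and 0.346% (0.139 to 0.711), and that in immune-like cells was 0.362% (0.0439 to 1.30). In immune-like cells *Hoxb9* was at 6.12 CPM (2.64 to 12.1), an interval that also reached the level of pooled RNA. Median depths were 5348, 3007 and 1682.5 UMIs in these classes. *Hoxc8* (chr15:102990607-102994111) had 45.2 CPM (42.6 to 47.9) in cortex-like and 4.61 CPM (3.29 to 6.28) in chromaffin-like cells, a 9.80-fold difference (7.15 to 13.8). *Hoxb6*, *Hoxb4*, *Hoxb3* and *Hoxa5* were also more than 2-fold higher in the cortex. *Hoxb6* was at 16.3 against 3.80 CPM (4.29-fold, 3.01 to 6.32), *Hoxb4* at 42.7 against 13.1 CPM (3.25-fold, 2.68 to 3.98), and *Hoxb3* at 30.5 against 7.84 CPM (3.89-fold, 3.04 to 5.07). *Hoxa5* was at 9.77 against 4.61 CPM (2.12-fold, 1.51 to 3.04). This difference fell below 2-fold when cells with UMIs of 3 or more markers of another class were left out. The chromaffin-like level was then 0.661 of the cortex-like one.

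Other single genes, most of them from the Hoxc cluster, were higher in chromaffin cells. The Hoxc cluster as a whole was at 82.2 CPM (76.3 to 88.5) in chromaffin-like and 73.2 CPM (69.9 to 76.7) in cortex-like cells. *Hoxc4* (chr15:103018934-103036852) had 35.6 CPM (31.8 to 39.8, 309 UMIs) in chromaffin-like cells and 2.44 CPM (1.86 to 3.14, 60 UMIs) in cortex-like cells, a 14.6-fold difference (11 to 19.6). *Hoxc9* (chr15:102976439-102985099) had 17.2 CPM (14.5 to 20.2, 149 UMIs) against 0.0814 CPM (0.00986 to 0.294) from 2 UMIs in the cortex, and the ratio was 211 (57.4 to 1758). *Hoxc9* was seen in 6.71% of chromaffin-like cells (5.66 to 7.87), in 2 of 3715 cortex-like cells and in none of the endothelial- or immune-like cells. *Hoxc5* was at 3.23 against 1.10 CPM (2.94-fold, 1.67 to 5.18), but its annotated span covers *Hoxc6*, *Hoxc8* and *Hoxc9* and it shares exon bases with *Hoxc10*. *Hoxd9* was at 1.73 against 0.814 CPM from 15 and 20 UMIs (2.12-fold, 1.01 to 4.36), and its ratio was 1.43 when each cell weighed the same. In all, of the 20 Hox genes with at least 20 UMIs in both classes together, 4 were at least 2-fold higher in chromaffin-like cells and 6 at least 2-fold lower. Of all 14092 genes compared, 24.1% were higher and 23.2% lower by this measure, so the count of Hox genes past 2-fold is near that of genes at large. The median log2 ratio was -0.13 over these 20 Hox genes and -0.00 over all genes.

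**Figure D2:**
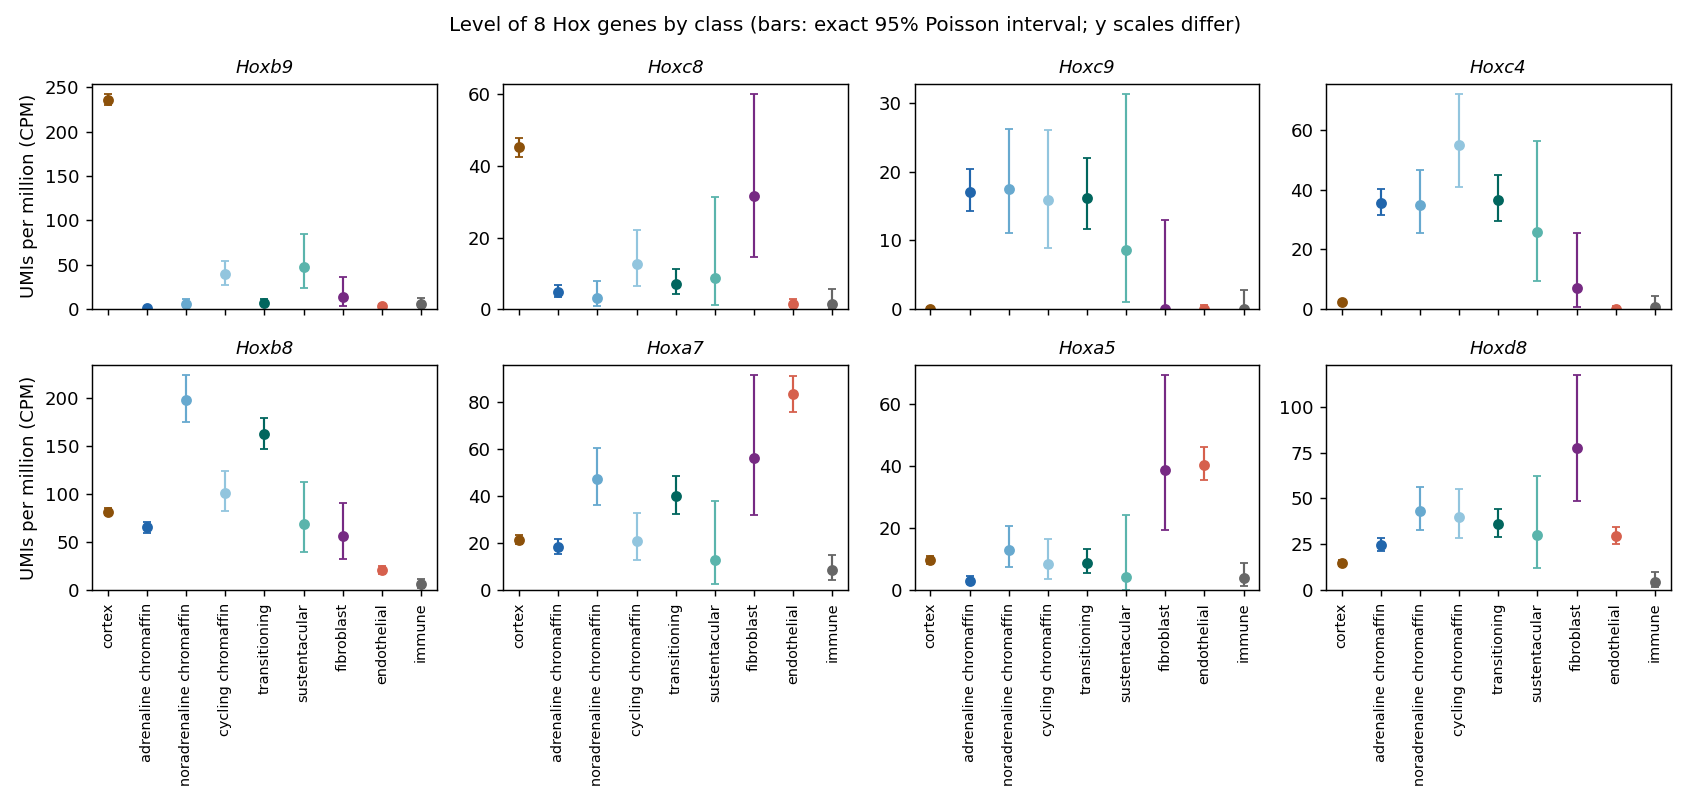
Level of 8 Hox genes in CPM (y axis, scales differ between panels) in each class (x axis), with exact 95% Poisson intervals as bars. *Hoxb9* is high in cortex-like cells and *Hoxc8* in cortex- and fibroblast-like cells. *Hoxc9* and *Hoxc4* are high in the chromaffin-like classes, and *Hoxa7* and *Hoxa5* in endothelial- and fibroblast-like cells.

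The contrast between cortex-like and chromaffin-like cells was sharp between neighbours on the chromosome. The starts of *Hoxb9* and *Hoxb8* are 10448 bases apart. *Hoxb9* made up 74.3% of the UMIs of this pair in cortex-like cells (73.3 to 75.3) and 1.72% in chromaffin-like cells (0.921 to 2.93), since *Hoxb8* stood at 81.7 CPM in the first and 85.4 CPM in the second. In the Hoxc cluster, *Hoxc9* and *Hoxc8* start 14168 bases apart, and *Hoxc9* made up 0.180% (0.0218 to 0.648) of the pair in cortex-like and 78.8% (72.3 to 84.4) in chromaffin-like cells. *Hoxb9* was not at the level of pooled RNA in every medullary class. In noradrenaline cells it was at 5.33 CPM (2.14 to 11) from 7 UMIs, where pooled RNA would give 1.66 CPM. Leaving out the 6 cells with UMIs of 3 or more cortex markers removed none of these 7 UMIs and gave 5.48 CPM. In transitioning-like cells *Hoxb9* was at 7.10 CPM (4.21 to 11.2), where pooled RNA would give 1.78 CPM. *Hoxb9* made up 40.7% (22.4 to 61.2) of its pair with *Hoxb8* in sustentacular-like cells, from 11 and 16 UMIs. In cycling chromaffin-like cells it made up 27.8% (20.4 to 36.3), and both classes are described below. Of the UMIs of *Hoxb9* and *Hoxc9* together, *Hoxb9* gave 99.97% in cortex-like and 8.02% in chromaffin-like cells. That share was 4.55% (1.69 to 9.63) in the adrenaline and 23.3% (9.93 to 42.3) in the noradrenaline type. In transitioning-like cells it was 30.5% (19.2 to 43.9). Sustentacular-like cells had 84.6% (54.6 to 98.1) from 11 and 2 UMIs, and cycling chromaffin-like cells, all kept, 71.2% (56.9 to 82.9). The split of chromaffin-like cells thus did not hold in each medullary class.

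Other genes were read at like levels in both lineages when each was taken as a whole. *Hoxb7* was at 99.0 CPM in cortex-like and 94.2 in chromaffin-like cells, a chromaffin to cortex ratio of 0.952 (0.878 to 1.03). That of *Hoxb8* was 1.05 (0.960 to 1.14), of *Hoxa7* 1.05 (0.886 to 1.24), of *Hoxc6* 0.883 (0.745 to 1.04) and of *Hoxb2* 1.06 (0.789 to 1.41). Such ratios can average over unlike parts. *Hoxa7* was at 18.2 CPM in adrenaline and 47.2 CPM in noradrenaline cells, and ranged from 4.12 to 63.4 CPM over the cortex clusters. *Hoxd8* and *Hoxd4* were 1.88-fold (1.59 to 2.22) and 1.89-fold (1.38 to 2.57) higher in chromaffin-like cells, short of 2-fold, and *Hoxb5* was 1.76-fold (1.45 to 2.15) higher in the cortex. *Hoxd4* shares exon bases with *Hoxd3*, so reads of the pair may have been split or dropped.

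Endothelial cells read almost nothing from the Hoxc cluster. Its 9 genes had 11 UMIs in 2150 endothelial-like cells, which is 0.537% (0.269 to 0.959) of the Hox UMIs of the class, against 21.7% (20.3 to 23.2) in chromaffin-like and 11% (10.5 to 11.5) in cortex-like cells. *Hoxc9* and *Hoxc5* had none. With 3 counts set in place of 0, which is 0.525 CPM, *Hoxc9* was 32.7-fold and *Hoxc5* 6.14-fold lower than in chromaffin-like cells. The exact intervals put these differences at 26.3-fold or more and 4.68-fold or more. *Hoxc6* had 2 UMIs (61.6-fold lower, 16.8 to 512), *Hoxc4* had 1 (203-fold lower, 36.2 to 8061) and *Hoxc8* had 8 (3.29-fold lower, 1.52 to 8.14). The Hoxa cluster in turn gave 41.2% (39 to 43.4) of the Hox UMIs, against 8.04% (7.13 to 9.02) in chromaffin-like and 5.16% (4.83 to 5.51) in cortex-like cells. Its level was 148 CPM (138 to 158) in endothelial-like, 30.4 CPM (26.9 to 34.3) in chromaffin-like and 34.4 CPM (32.1 to 36.8) in cortex-like cells. The larger chromaffin-like share thus did not go with a higher level than in the cortex.

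Most of the Hoxa RNA of endothelial-like cells came from *Hoxa7* (chr6:52214491-52221854, - strand) with 83.2 CPM (75.9 to 91.0) and *Hoxa5* (chr6:52201754-52204587, - strand) with 40.5 CPM (35.4 to 46.0). *Hoxa7* was 3.68-fold (3.11 to 4.37) and *Hoxa5* 8.77-fold (6.25 to 12.6) higher than in chromaffin-like cells. The less abundant *Hoxa2*, *Hoxa3*, *Hoxa4* and *Hoxa9* were at 4.90, 9.11, 4.03 and 2.98 CPM. They were 8.51-fold (3.24 to 28.2), 9.87-fold (4.66 to 24.1), 6.99-fold (2.60 to 23.5) and 6.46-fold (2.11 to 26.4) higher. These ratios rest on 5, 8, 5 and 4 UMIs in chromaffin-like cells. *Hoxb4* at 33.1 CPM (2.52-fold, 1.99 to 3.21) and *Hoxb3* at 19.3 CPM (2.46-fold, 1.80 to 3.38) were higher too. *Hoxb9* also passed 2-fold, but neither of its values was shown to lie above the pooled RNA. *Hoxb8* was 4.13-fold lower (3.4 to 5.06), at 20.7 CPM. Of 21 Hox genes compared, 9 were higher and 6 lower by at least 2-fold, against 22.6% higher and 25.7% lower among 13128 genes, and the Hox median log2 ratio was 0.57 against 0.00. Against the cortex, 8 of 21 were higher and 7 lower, with 22.5% and 22.4% of 13290 genes. The 8 were *Hoxa2* to *Hoxa7*, *Hoxd4* and *Hoxd8*, with ratios from 2.02 for *Hoxd8* to 8.25 for *Hoxa4*. The 7 were *Hoxb9* (67.4-fold lower, 43.6 to 110), *Hoxb8*, *Hoxb6* and 4 Hoxc genes. *Hoxa7* was at 86.4, 93.8 and 70.7 CPM in the 3 endothelial-like clusters, which were led by *Cldn5*, *Ly6a* and the cycling gene *Mki67*.

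**Figure D3:**
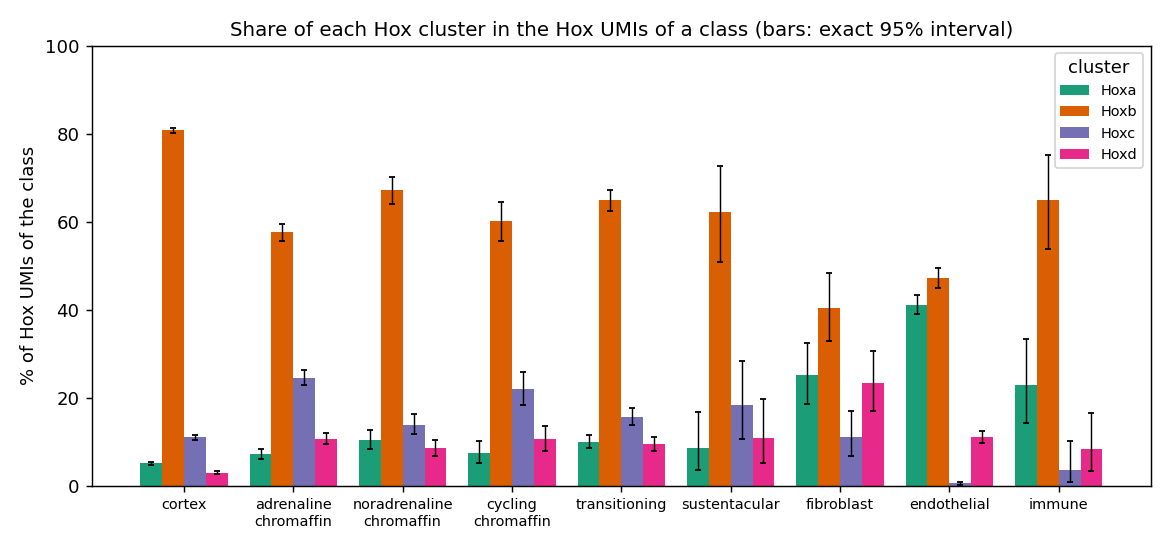
Share of the Hox UMIs of each class (y axis, percent, from 0) that came from the Hoxa, Hoxb, Hoxc and Hoxd clusters (coloured bars), with exact 95% intervals. Hoxb leads in each class, with 80.8% in cortex-like cells, and Hoxc is near 0 in endothelial-like cells.

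Within the medulla, noradrenaline cells read more Hox RNA than adrenaline cells. *Hoxb8* was at 198 CPM (175 to 224) in the noradrenaline and 65.4 CPM (59.6 to 71.5) in the adrenaline type, a 3.03-fold difference (2.59 to 3.53). *Hoxb7* was at 168 against 81.1 CPM (2.07-fold, 1.76 to 2.41), and its ratio was 1.94 when each cell weighed the same. *Hoxa7* was at 47.2 against 18.2 CPM (2.59-fold, 1.89 to 3.53) and *Hoxb5* at 36.5 against 10.2 CPM (3.59-fold, 2.44 to 5.22). *Hoxb6* and *Hoxa5* were each at 12.9 CPM in noradrenaline cells, 5.95-fold (2.83 to 12.6) and 4.14-fold (2.08 to 8.10) higher. The Hoxc genes that set chromaffin cells apart from the cortex did not follow, since *Hoxc4* had a ratio of 0.980 (0.700 to 1.34) and *Hoxc9* one of 1.02 (0.626 to 1.60). *Hoxc6* and *Hoxd8* lay between, with 1.88 (1.32 to 2.64) and 1.76 (1.28 to 2.38). Of 16 Hox genes compared, 6 were at least 2-fold higher in noradrenaline cells and 0 lower, while among 11573 genes 6.15% were higher and 8.8% lower. The Hox median log2 ratio was 0.62, beside -0.01 for all genes. Of the Hox genes, 5 were among the genes used to cluster the medullary cells. With all Hox rows left out of the clustering, each of the 6 stayed at least 2-fold higher. Cortex markers summed to 161 CPM in noradrenaline and 138 CPM in adrenaline cells, and endothelial markers to 20.6 and 34.9 CPM. The markers of 2 other cell types moved with the Hox difference. Sustentacular markers summed to 45.7 CPM in noradrenaline and 3.67 CPM in adrenaline cells, with 0 and 1 of 6 at 0, and mural markers to 87.6 and 17.1 CPM, with 3 and 2 of 6 at 0. None of these markers was detected in 25% of cells of either type, and their part in the result was not tested.

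**Figure D4:**
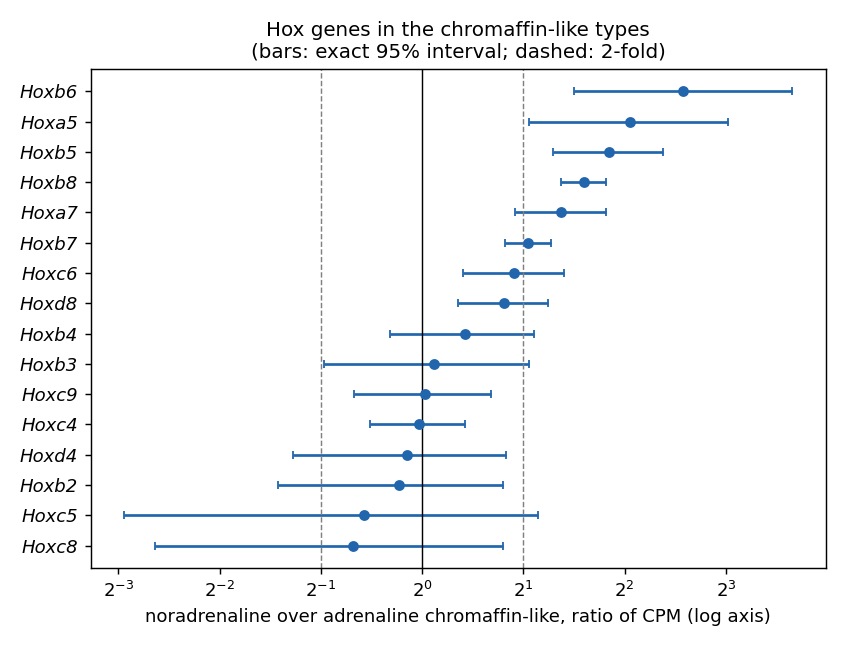
Ratio of the level in noradrenaline to that in adrenaline chromaffin-like cells (x axis, log scale) for the 16 Hox genes with at least 20 UMIs, with exact 95% intervals as bars. The 6 genes past the 2-fold line are Hoxa and Hoxb genes numbered 5 to 8, and *Hoxc4* and *Hoxc9* lie at 1.

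Transitioning-like cells resembled the noradrenaline type in these genes. *Hoxb8* was at 163 CPM (147 to 179), *Hoxb7* at 146 (132 to 162), *Hoxa7* at 39.8 (32.5 to 48.4) and *Hoxb5* at 28.8 (22.6 to 36.2), each nearer to the noradrenaline than to the adrenaline value. *Hoxc4* at 36.7 CPM and *Hoxc9* at 16.2 CPM matched both types within their intervals. Transitioning-like cells were 1 cluster here, while the authors described separate transitioning cells for the noradrenaline and adrenaline lineages. Of these the authors counted more cells for the noradrenaline lineage. The part that a mix of both plays in this likeness was not tested. *Hoxb8* and *Hoxa7* were thus higher together in noradrenaline and transitioning-like cells, and they were so again in 1 cluster of the cortex described below. They went opposite ways in endothelial-like cells, where *Hoxa7* was 3.68-fold higher and *Hoxb8* 4.13-fold lower than in chromaffin-like cells. For the joint rise the promoters of *Hoxb8* and *Hoxa7* are shown. Each is the 250 bases before and 50 after the annotated start in RefSeq (build GRCm38.p6). They lie at chr11:96281655-96281954 on the + strand and chr6:52218524-52218823 on the - strand. The *Hoxa7* window lies inside the span given above for that gene (chr6:52214491-52221854), so the 2 annotations place its start differently. The bases before the other start were not examined. A table of such promoters held 22 of the 39 Hox genes. Capitals mark matches on either strand to the TATA box letters TATAAA and to the GC box letters GGGCGG.
Hoxb8: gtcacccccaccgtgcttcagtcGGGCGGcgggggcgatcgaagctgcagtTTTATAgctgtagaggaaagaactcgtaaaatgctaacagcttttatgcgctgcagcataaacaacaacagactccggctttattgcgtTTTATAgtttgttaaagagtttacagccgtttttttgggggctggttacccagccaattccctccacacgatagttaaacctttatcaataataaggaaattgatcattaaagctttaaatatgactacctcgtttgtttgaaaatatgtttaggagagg
Hoxa7: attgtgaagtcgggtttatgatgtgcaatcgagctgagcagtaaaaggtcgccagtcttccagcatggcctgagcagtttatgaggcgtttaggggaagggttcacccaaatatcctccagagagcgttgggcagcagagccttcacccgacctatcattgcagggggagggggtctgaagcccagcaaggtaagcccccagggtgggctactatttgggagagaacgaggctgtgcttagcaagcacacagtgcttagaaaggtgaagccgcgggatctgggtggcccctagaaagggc
The *Hoxb8* promoter held the first motif at 2 places and the second at 1, and that of *Hoxa7* held neither. Of 32851 promoters of this length, 13.6% held the first and 35.7% the second. AAGGTCA, the core of sites bound by the steroidogenic factor NR5A1, and TGATTNAT, a sequence bound by Hox proteins with their Pbx partners, were in neither promoter and in 4.72% and 3.22% of all promoters. The 4 motifs do not overlap one another.

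Sustentacular-like cells gave 82 Hox UMIs and few firm values. Their highest genes were *Hoxb8* and *Hoxb7*, each at 69.2 CPM (39.6 to 112) from 16 UMIs, near the chromaffin-like 85.4 and 94.2 CPM. Of 17 genes with enough UMIs in both classes together, 1 was at least 2-fold higher than in chromaffin-like cells and 0 were lower, where 15% and 16% of 11827 genes were. The 1 gene was *Hoxb9*, with 11 UMIs in 9 of 179 cells and 47.6 CPM (23.8 to 85.2), 31.8-fold (12.9 to 76.8) above the chromaffin-like level. Cortex markers in this class stood at 1.77% of their cortex-like level, a share that would give 4.17 CPM of *Hoxb9*, and pooled RNA, at 10.2% of its level over all marker lists, would give 13.7 CPM. Leaving out the 3 cells with UMIs of 3 or more cortex markers left 10 UMIs and 44.3 CPM (21.2 to 81.5). *Hoxc9* and *Hoxc8* had 2 UMIs each and *Hoxc4* had 6. Fibroblast markers summed to 1216 CPM in this class, 1 of them was detected in at least 50% of cells and 3 of 6 had no UMI, and their part in the result was not tested.

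Cycling chromaffin-like cells also had *Hoxb9*, at 39.1 CPM from 37 UMIs, but here 44 of 135 cells had UMIs of at least 3 cortex markers and 12.6% were called as doublets. Without those 44 cells 2 UMIs and 3.60 CPM (0.436 to 13) were left. *Hoxc4* at 54.9 CPM (41.0 to 72.0) and *Hoxc9* at 15.8 CPM (8.86 to 26.1) were as in the other chromaffin-like cells or above.

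The cortex was not uniform. Of its 4 clusters, 1 of 755 cells was led by genes that include *Wnt4*, known from the outer zone, 1 of 907 cells by *Cyp11b1*, which makes glucocorticoid, 1 of 1693 cells by genes that include *Akr1c18*, known from the innermost zone, and 1 of 360 cells by cell cycle genes such as *Ccnb1*. *Hoxa7* was at 63.4 CPM (56.5 to 70.9) in the Wnt4-led, 23.2 CPM (19.4 to 27.4) in the Cyp11b1-led and 4.12 CPM (2.98 to 5.55) in the Akr1c18-led cluster. *Hoxa5* stood at 31.8, 6.17 and 2.49 CPM, *Hoxb8* at 155, 103 and 42.6 CPM, *Hoxb3* at 53.0, 35.3 and 18.5 CPM and *Hoxb4* at 65.2, 46.5 and 28.2 CPM in the same order. The order was the opposite for *Hoxb9*, with 182 (170 to 194), 238 (225 to 250) and 262 CPM (252 to 272).

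Between the Wnt4-led and the Akr1c18-led cluster, a comparison chosen after the data were seen, *Hoxa7* was 15.4-fold (11.1 to 21.7), *Hoxa5* 12.8-fold (8.38 to 20.1) and *Hoxb8* 3.64-fold (3.23 to 4.10) higher in the first. *Hoxc4*, *Hoxb3*, *Hoxd4*, *Hoxb2* and *Hoxb4* were 3.88-, 2.87-, 2.45-, 2.41- and 2.31-fold higher. In all, 8 of 15 Hox genes were at least 2-fold higher and 0 lower, while 22.3% of 11844 genes were higher and 9.47% lower. The median log2 ratio was 1.21 over the 15 Hox genes and 0.21 over all genes. Endothelial markers moved with this result, at 1035 CPM in the Wnt4-led and 18.8 CPM in the Akr1c18-led cluster, and 35.2% of the Wnt4-led cells had UMIs of at least 3 markers of another class. In the other 489 Wnt4-led cells endothelial markers were at 35.6 CPM, and *Hoxa7* was at 63.4 CPM (53.9 to 74.0), *Hoxa5* at 28.9 (22.7 to 36.3) and *Hoxb8* at 166 (150 to 182). The ratios to the Akr1c18-led cells were then 14.9, 12.7 and 3.88. *Hoxb8* and *Hoxb9* were among the genes used to cluster the cells and *Hoxa7* and *Hoxa5* were not. With all Hox rows left out of the clustering the ratios were 14.7 for *Hoxa7*, 12.5 for *Hoxa5* and 3.53 for *Hoxb8*.

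**Figure D5:**
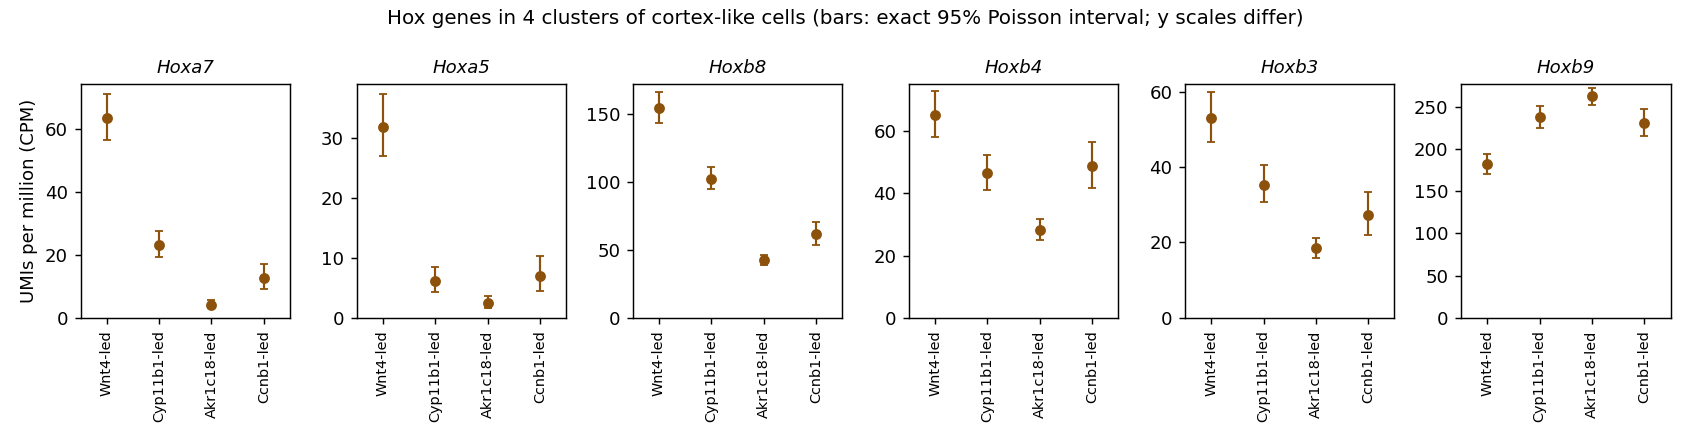
Level of 6 Hox genes in CPM (y axis, scales differ between panels) in the 4 clusters of cortex-like cells (x axis, named by a leading gene), with exact 95% Poisson intervals as bars. *Hoxa7*, *Hoxa5*, *Hoxb8*, *Hoxb4* and *Hoxb3* are highest in the Wnt4-led and lowest in the Akr1c18-led cluster, and *Hoxb9* is lowest in the Wnt4-led cluster.

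The 89 fibroblast-like cells had the highest levels of *Hoxd8*, at 77.3 CPM (48.4 to 117, 22 UMIs), and of *Hoxd9*, at 42.2 CPM (21.8 to 73.7, 12 UMIs), which stayed at or below 5.52 CPM in the other 8 classes. The *Hoxd8* interval overlaps that of noradrenaline cells (32.9 to 56.2). The Hoxd cluster gave 23.3% (17.1 to 30.6) of their Hox UMIs. *Hoxa7* at 56.2 CPM and *Hoxa5* at 38.6 CPM were near the endothelial-like levels. Endothelial markers were at 4227 CPM and mural markers at 949 CPM in this class, beside 2544 CPM of fibroblast markers. Of its cells, 59.6% had UMIs of 3 or more markers of another class. The part of these markers and cells in the levels of *Hoxd8*, *Hoxd9*, *Hoxa7* and *Hoxa5* was not tested.

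Hox proteins bind DNA together with the Pbx and Meis families of homeodomain proteins. Of 9 such cofactor genes, 8 had enough UMIs, and 2 were at least 2-fold higher in chromaffin-like and 3 in cortex-like cells, which is near the 24.1% and 23.2% among all genes in this comparison. *Meis2* was at 412 CPM in cortex-like, 1190 CPM in endothelial-like and 6.0 CPM in chromaffin-like cells, a 68.8-fold difference (52.4 to 92.1) between cortex and chromaffin. *Pbx3* was at 119 CPM in cortex-like, 44 CPM in endothelial-like and 1.96 CPM in chromaffin-like cells. *Pbx4* was higher in chromaffin-like cells (7.84 against 0.244 CPM, 32.1-fold, 14 to 90.5) and reached 31.7 CPM in the cycling ones. The other was *Meis3*, at 16.9 against 1.34 CPM.

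The Polycomb and Trithorax proteins keep Hox genes off or on through chromatin. Of 24 such genes, 4 were at least 2-fold higher in chromaffin-like and 3 in cortex-like cells, where 24.1% and 23.2% of all genes were. *Cbx6*, of the Polycomb complex, was at 74.3 against 28.2 CPM and *Kmt2a*, of the Trithorax group, at 158 against 71.8 CPM. *Dot1l*, a histone methyltransferase, was at 91.5 CPM in the cortex against 18.1 CPM in chromaffin-like cells, and *Ezh2* at 38.3 against 17.2 CPM. Among 17 genes of retinoic acid supply and other signals that act on Hox genes, 11 had enough UMIs, 4 were higher in chromaffin-like and 4 in cortex-like cells, beside 24.1% and 23.2% of all genes. *Aldh1a3*, which makes retinoic acid, was at 244 CPM in noradrenaline, 138 in transitioning-like, 12.8 in adrenaline and 0.692 in cortex-like cells. The receptor *Rarg* was at 50.8 CPM in endothelial-like cells, 8.42 in chromaffin-like and 2.61 in cortex-like cells, and *Gmnn* at 37.9 CPM in the cortex against 16.9 CPM in chromaffin-like cells. The receptor *Rxra* was at 12.2 against 4.73 CPM and *Aldh1a1*, a relative of *Aldh1a3*, at 6.88 against 1.73 CPM in the same order. Chromaffin-like cells leave out the cycling chromaffin-like class, while cortex-like cells keep a cluster led by cell cycle genes. Cycling markers summed to 502 CPM in cortex-like and 115 CPM in chromaffin-like cells. In cycling chromaffin-like cells *Gmnn* was at 89.7 CPM, and both *Gmnn* and *Ezh2* were above their cortex-like levels. The part of cycling cells in the differences of *Gmnn* and *Ezh2* was not tested. Of the 9 non-coding RNAs of the Hox clusters in the matrix, 4 had enough UMIs. *Hoxd3os1* was 4.47-fold higher in chromaffin-like cells (3.89 to 5.13), at 62.4 against 14 CPM. Another, *Hoxb5os*, was at 16.9 CPM in the cortex and 1.96 CPM in chromaffin-like cells, and *Hotair* and *Hottip* had no UMI.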

How the data were processed

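The library was made with a droplet 3′ kit, aligned to mm10 and counted by the authors with Cell Ranger 4.0.0, and the deposited matrix holds UMI counts, not normalised, for barcodes already called as cells. Cells with 500 to 5000 genes and at most 20% mitochondrial UMIs were kept and clustered in Seurat 5.3.0 (2000 variable genes, 10 principal components, resolution 0.4), and medullary cells were clustered again. A class needed at least 3 markers, each in 50% of its cells (25% for sustentacular and cycling). Mixed clusters with 538 cells, 192 cells that left the medullary set on the second clustering and 43 unnamed cells stayed out of the classes. Doublets were called with Scrublet in scanpy 1.11.5 (669 cells, 6.60%) and kept, their removal being an alternative. Counts were summed per class. Ratios were taken for genes with at least 20 UMIs in both classes together, a difference was called at 2-fold, and a class at 0 was set to 3 counts. Intervals were exact (Poisson, Clopper-Pearson, or conditional binomial for ratios, scipy 1.17.1). Those for ratios were tested only on sums simulated from a Poisson model, which they assume, so this check holds no variation between cells. All intervals treat UMIs as independent and hold no variation between animals. Named Hox genes are those among the 5 highest of a class or past 2-fold in a comparison. Genes of other lists had to be past 2-fold between chromaffin-like and cortex-like cells with a class over 20 CPM, at most 5 a list. *Meis3*, *Hoxb5os*, *Hotair* and *Hottip* fall outside this rule and were named after their values were seen. The members and gene lists were chosen with earlier results of these data known. Some genes of these lists are not reported here.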

Additional observations from a re-analysis of the deposited data

How the results depend on the processing

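None of the values below changed direction. Counts of Hox genes past 2-fold kept within 1.5 times of those given, except as follows. Without a minimum of UMIs they were 12 (noradrenaline over adrenaline, higher), 14 (Wnt4-led over Akr1c18-led, higher) and 4 (sustentacular-like over chromaffin-like, higher), the last being 2 with each cell weighted alike and 2 at resolution 0.8. The count lower in sustentacular-like cells was 1 with each cell weighted alike, 1 without cells holding 3 markers of another class and 1 without doublets. That lower in noradrenaline cells was 1 without cells holding such markers and 1 under a stricter filter on cells (1000 genes or more, mitochondrial share of 10% or less), which gave 5 genes higher in endothelial-like than in cortex-like cells and left no sustentacular-like or fibroblast-like class. The summed level in adrenaline cells was 309 CPM with each cell weighted alike. In cycling cells it was 411 without cells holding such markers, 399.7 at resolution 0.8, 372 with 30 principal components, 397 with the strict filter and 394 without doublets, and their mean paralog number was 6.40, 6.36, 6.42, 6.40 and 6.32. In cortex-like cells the sum was 649.5 weighted by cell, 656 without cells holding such markers and 655 at resolution 0.8, and the mean paralog number was 7.34 without such cells, 7.33 at resolution 0.8 and 7.31 with the strict filter. In immune-like cells the sum was 40.8 weighted by cell, 15.5 without cells holding such markers, 27.6 at resolution 0.8, 217 with the strict filter and 22.8 without doublets, with 2, 0, 1, 11 and 0 genes at 5 CPM and a mean paralog number of 6.82 with the strict filter. In fibroblast-like cells without cells holding such markers the sum was 684, 10 genes reached 5 CPM and the mean paralog number was 6.86. In sustentacular-like cells 19 genes reached 5 CPM without such cells, where 1 UMI passes that level. The mean paralog number weighted by cell was 5.95 in endothelial-like and 6.63 in chromaffin-like cells. Apart from the fewer cells that some of these settings leave, the cause was not tested. Beside the ratios of *Hoxa5*, *Hoxd9* and *Hoxb7* given with the results, some fell short of 2-fold under a setting. In endothelial-like over chromaffin-like cells *Hoxb9* was at 1.89 weighted by cell and 1.69 without cells holding such markers. In endothelial-like over cortex-like cells *Hoxc5* was at 0.581 without such cells, and with the strict filter *Hoxd8* was at 1.88 and *Hoxd4* at 1.997. Between the cortex clusters *Hoxd4* was at 1.92 with the strict filter. The ratio of *Hoxa7* between the Wnt4-led and Akr1c18-led clusters ranged from 12.1 to 21.7 over the alternatives. Depth limits sustentacular-like and fibroblast-like cells most. Leaving out cells with 3 or more markers of another class was chosen after the data were seen.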

Other observations

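Cells that were put in no class held Hox RNA too. The mixed cluster with chromaffin and cortex markers had 266 cells, 79.7% of them called as doublets, and carried *Hoxb9* at 148 CPM together with *Hoxc4* at 14.7 CPM and *Hoxc9* at 5.88 CPM. The mixed cluster of 224 cells with cortex and endothelial markers had *Hoxb9* at 220.3 CPM and no UMI of *Hoxc4* or *Hoxc9*. In the 43 unnamed cells, led by the lymphocyte genes *Ccl5*, *Nkg7* and *Cd3d*, 1 Hox UMI was counted.

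The adrenaline chromaffin-like cells fell into 3 clusters of 818, 733 and 119 cells. *Hoxb8* was at 64.0, 66.1 and 62.5 CPM in them, and *Hoxc4* at 29.2, 38.7 and 31.2 CPM. The summed Hox level was 307, 339 and 272 CPM. *Hoxb4* was at 6.55 CPM (3.49 to 11.2), 15.1 CPM (11.9 to 19.0) and 9.61 CPM (2.62 to 24.6), and the intervals of the first and second cluster do not overlap. *Hoxc9* was at 24.2 CPM (17.8 to 32.1), 14.5 CPM (11.4 to 18.3) and 14.4 CPM (5.29 to 31.4), with intervals that overlap. Such an overlap does not by itself show that the levels are alike.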
